A study of Rattus norvegicus with 4 samples.

Results

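The respiratory chain and the ATP synthase of the inner mitochondrial membrane were examined in neonatal rat cardiomyocytes that overexpressed atrogin-1, a muscle F-box protein of a ubiquitin ligase. The genes were chosen by symbol from the table that pairs the probe sets of the array with genes: those whose symbol starts with Nduf, Uqcr, Atp5 or Cox4 to Cox8, together with Sdha, Sdhb, Sdhc, Sdhd and Cyc1. This gave 99 of 14863 genes, measured by 104 of 31042 probe sets. Of the 99 genes, 87 have a probe set of their own and 12 are measured only through probe sets that they share with a near-identical copy. The rule itself used no measured value, but the members were chosen with earlier results of these data known.

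The cells were ventricular cardiomyocytes of the Sprague-Dawley strain, taken from neonates of 1 to 2 days, plated for 24 hours in medium with 10% serum, and then infected for 24 hours in serum-free medium. The control cells received an adenovirus that carries GFP (Ad-GFP), and the others one that carries both atrogin-1 and GFP (Ad-atrogin-1), so that both groups received a virus with GFP. Each group has 2 samples, each hybridized to an Affymetrix rat array of its own, and each value is a log2 signal of a probe set made by robust multi-array average (RMA). The labels call the samples of a group biological replicates, and with 2 arrays per group the precision of every value below is limited by their number.

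The respiratory chain passes electrons from NADH through complex I, or from succinate through complex II, to coenzyme Q, then through complex III and cytochrome c to complex IV, where oxygen is reduced. Complexes I, III and IV pump protons out of the matrix, and the ATP synthase, also called complex V, lets them flow back and makes ATP. Heart muscle depends on this pathway for contraction, and its mitochondria switch some complex IV subunits to muscle isoforms as the heart matures. Most subunits are encoded in the nucleus, which is the set described here, and a core of them is encoded by mitochondrial DNA.

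Fbxo32, the gene of atrogin-1, had log2 signals of 5.24 and 5.04 on the Ad-GFP arrays and of 13.55 and 13.47 on the Ad-atrogin-1 arrays, as the labels state (log2 fold change 8.37 with a standard error of 0.13, limma adjusted p = 7.67e-05). The medians of the 4 arrays lay between 5.51 and 5.52, and the lower quartiles between 3.88 and 3.94. One array stood apart for the respiratory chain. Ad-atrogin-1 replicate 1 gave the highest of the 4 signals for 78 of the 87 genes (89.7%), whereas each of the 4 arrays was the highest for 24.4% to 25.6% of all 14217 genes with a probe set of their own. Ad-atrogin-1 replicate 2 was the highest for 3 of the 87 genes. The 2 Ad-atrogin-1 arrays are therefore given apart. A median on 1 of them, relative to the mean of the Ad-GFP arrays, is also the median log2 fold change with the other left out.

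No respiratory chain or ATP synthase probe set passed the test between Ad-atrogin-1 and Ad-GFP cardiomyocytes by limma, where 0.274% of all 31042 probe sets did (0.248% as higher and 0.0258% as lower). Passing it took a 2-fold change and an adjusted p under 0.05. The lowest adjusted p among them was 0.141, for the complex I assembly factor gene Ndufaf8. Over the 87 genes the median log2 fold change was 0.15, that is 1.11-fold, with 80 genes above 0 and 7 below. The median of all 14217 genes was -0.003, with 49.2% above 0. Of the 104 probe sets, 3 had an unadjusted p under 0.05, those of Ndufaf8, Ndufaf3 and Cox4i2 and all higher in Ad-atrogin-1, beside 11.2% of all probe sets (5.6% higher and 5.61% lower). The share of members past that limit was thus under the background, whereas the share of members above 0 was over that of all genes.

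The 2 Ad-atrogin-1 arrays did not show the same. Relative to the mean of the Ad-GFP arrays, the median of the 87 genes was 0.32 on Ad-atrogin-1 replicate 1 and 0.001 on replicate 2, on the log2 scale. Replicate 1 was above the Ad-GFP mean at 85 of 87 genes and replicate 2 at 44 of 87. The Ad-GFP arrays differed less, by a median of 0.06, with replicate 1 above replicate 2 at 60 of 87 genes. Without Ad-atrogin-1 replicate 1 the median log2 fold change of the 87 genes was 0.001, and without replicate 2 it was 0.32. Without Ad-GFP replicate 1 or replicate 2 it was 0.17 or 0.12. In these cultures, fewer cells of a type and less RNA per cell cannot be told apart.

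**Figure D1:**
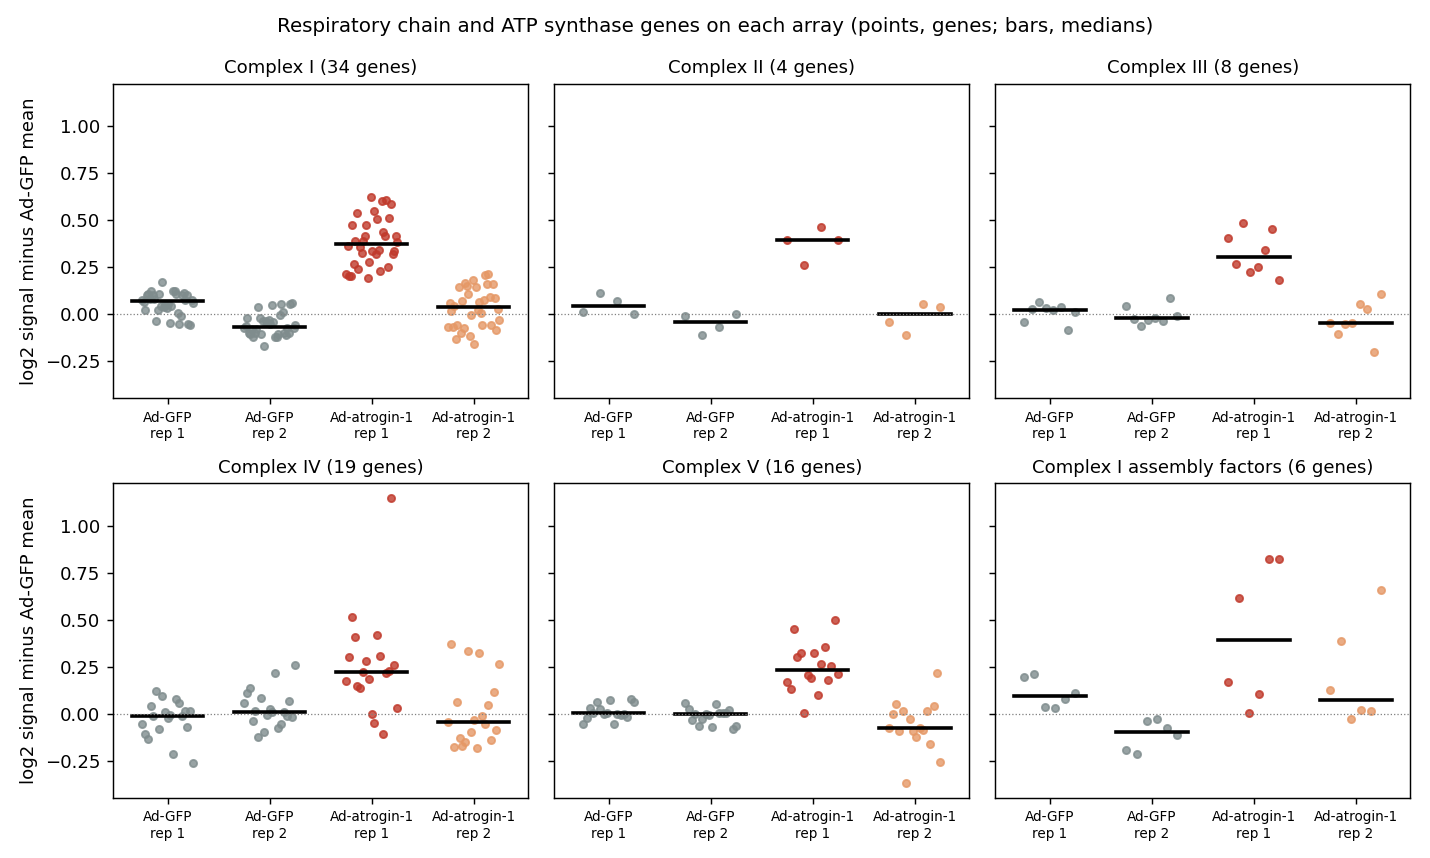
Log2 signal of each gene minus its mean on the 2 Ad-GFP arrays (vertical axis) on each of the 4 arrays (horizontal axis), for complexes I to V and the complex I assembly factors; points are genes and bars are medians. On Ad-atrogin-1 replicate 1 the points of complexes I, II and III all lie above 0, and on replicate 2 they scatter around 0.

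The members were compared with other genes of like signal. Among the upper 5% of genes by mean signal, 54 of 55 members had their highest signal on that array, whereas 17.2% of the 656 other genes did, and 37.3% of those others had it on Ad-atrogin-1 replicate 2. The median of these 55 members was 0.26 above the Ad-GFP mean on replicate 1 and 0.05 below it (-0.05) on replicate 2, and that of the 656 other genes was 0.003 and 0.05.

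**Figure D2:**
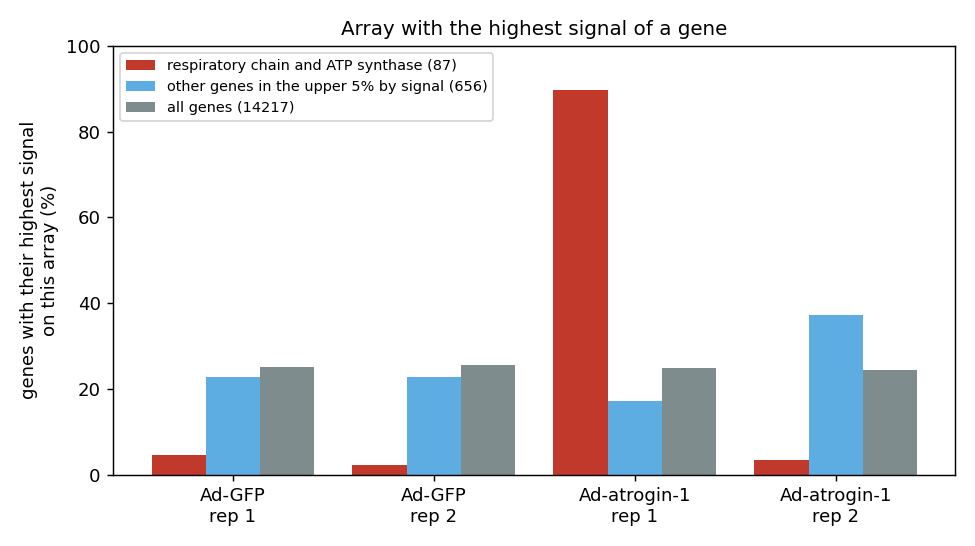
Percentage of genes with their highest signal on each of the 4 arrays (vertical axis, from 0) for the 87 respiratory chain and ATP synthase genes, for 656 other genes in the upper 5% by signal and for all 14217 genes. The bar of the respiratory chain reaches 89.7% on Ad-atrogin-1 replicate 1 and stays under 5% on the other arrays.

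Complex I, the NADH dehydrogenase, had a median log2 fold change of 0.21 over 34 genes, and all 34 lay above 0, from 0.04 for Ndufb11 to 0.41 for Ndufs3. All 34 had their highest signal on Ad-atrogin-1 replicate 1. The median was 0.37 above the Ad-GFP mean on that array and 0.04 above it on replicate 2, and 21 of 34 genes were above the mean on replicate 2. None of them had an unadjusted p under 0.05.

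The core subunits of complex I, among them those that bind the flavin and the iron-sulfur clusters, were measured as Ndufs1, Ndufs3, Ndufs7, Ndufs8, Ndufv1 and Ndufv2, with a median log2 fold change of 0.25. Ndufs3, a core subunit of the peripheral arm, had log2 signals of 9.91 and 9.71 in Ad-GFP and of 10.42 and 10.03 in Ad-atrogin-1. Both Ad-atrogin-1 signals lay above both Ad-GFP signals, with the Ad-atrogin-1 arrays farther from each other than the lower of them was from Ad-GFP (log2 fold change 0.41 with a standard error of 0.17, limma adjusted p = 0.471). Its log2 fold change was 0.21 with Ad-atrogin-1 replicate 1 left out and 0.61 with replicate 2 left out. The groups did not overlap for 4 of the 6 core genes, all higher in Ad-atrogin-1, beside 20.7% higher and 22.3% lower over all genes.

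The accessory subunits of complex I, which surround the core and take part in its assembly and stability, fall into series by name. The 13 genes of the b and c series had a median log2 fold change of 0.28, the 12 of the a series 0.14, and the 3 of the s and v series 0.18. On Ad-atrogin-1 replicate 1 these medians were 0.41, 0.34 and 0.38, and on replicate 2 they were 0.07, -0.02 and -0.03. Ndufb3 had signals of 9.63 and 9.56 in Ad-GFP and of 10.22 and 9.78 in Ad-atrogin-1 (log2 fold change 0.40 with a standard error of 0.17, limma adjusted p = 0.481). The brightest genes of the complex differed less. Ndufb9 had signals of 11.71 and 11.50 in Ad-GFP and of 11.83 and 11.55 in Ad-atrogin-1, and Ndufa1 had 11.64 and 11.49 against 11.78 and 11.50. At both genes the groups overlapped, and without Ad-atrogin-1 replicate 1 the log2 fold changes, 0.08 and 0.07, turned to -0.06 and -0.07. Ndufb11 and Ndufa13, the smallest log2 fold changes of the complex at 0.04 and 0.07, also turned negative without that array, to -0.12 and -0.07.

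Complex II, the succinate dehydrogenase, also belongs to the tricarboxylic acid cycle and is encoded by 4 genes, all of which were measured. Its median log2 fold change was 0.20, with 0.39 above the Ad-GFP mean on Ad-atrogin-1 replicate 1 and -0.002 on replicate 2. The flavoprotein gene Sdha had signals of 10.38 and 10.36 in Ad-GFP and of 10.76 and 10.32 in Ad-atrogin-1, and the iron-sulfur gene Sdhb 10.81 and 10.59 against 10.96 and 10.58. The membrane anchor gene Sdhc had 10.32 and 10.18 against 10.71 and 10.30. For these 3 genes the second Ad-atrogin-1 array lay within or below the Ad-GFP signals. The other anchor gene, Sdhd, had 10.48 and 10.49 against 10.88 and 10.52, and did not overlap. Log2 fold changes ran from 0.07 for Sdhb to 0.26 for Sdhc, each with a standard error of 0.15 to 0.17.

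Complex III, the cytochrome bc1 complex, had 8 genes with a probe set of their own and a median log2 fold change of 0.15, with 0.30 on Ad-atrogin-1 replicate 1 and -0.05 on replicate 2. All 8 were above 0 and highest on replicate 1. Uqcrfs1, the Rieske iron-sulfur protein that takes electrons from ubiquinol, had signals of 11.58 and 11.50 in Ad-GFP and of 11.88 and 11.57 in Ad-atrogin-1. Cyc1, the cytochrome c1 gene, had 11.02 and 11.11 against 11.47 and 11.01. The groups overlapped at both genes. The core protein gene Uqcrc1 had a log2 fold change of 0.09 and its partner Uqcrc2 one of 0.15, and the small subunit genes ran from 0.08 for Uqcr10 to 0.22 for Uqcr11 (standard error 0.20, adjusted p = 0.774, limma). With Ad-atrogin-1 replicate 1 left out, Uqcr11 was at -0.05, Uqcr10 at -0.10 and Uqcrc1 at -0.05.

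Complex IV, the cytochrome c oxidase, had a median log2 fold change of 0.09 over 19 genes, with 0.22 on Ad-atrogin-1 replicate 1 and -0.04 on replicate 2. Ndufa4 and Ndufa4l2 are counted here, since Ndufa4 is a subunit of this complex in spite of its name, as is the pseudogene copy Cox6c-ps1. Among complexes I to V it had the widest range, from -0.11 for Cox7a1 to 0.63 for Cox8b. The 10 ubiquitous subunits and isoforms had a median of 0.08, all 10 above 0 and all 10 highest on Ad-atrogin-1 replicate 1, while on replicate 2 8 of the 10 were below the Ad-GFP mean. Cox4i1, the largest of the nuclear subunits, had signals of 12.27 and 12.38 in Ad-GFP and of 12.50 and 12.28 in Ad-atrogin-1. Cox7a2l, a factor that joins complexes III and IV in supercomplexes, had 9.77 and 10.20 against 10.40 and 10.30. Its groups did not overlap, and its 2 Ad-GFP arrays stood farther apart than its 2 Ad-atrogin-1 arrays (log2 fold change 0.37 with a standard error of 0.17, limma adjusted p = 0.513).

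The isoforms of complex IV did not share 1 pattern over the arrays. Cox8b, the isoform of subunit 8 found in heart and muscle, had signals of 7.48 and 7.62 in Ad-GFP and of 8.70 and 7.66 in Ad-atrogin-1. Its log2 fold change was 0.63 with all arrays, 0.11 without Ad-atrogin-1 replicate 1 and 1.15 without replicate 2 (standard error of 0.33, limma adjusted p = 0.56). Cox8a, the ubiquitous isoform, had 11.77 and 11.75 against 11.98 and 11.62, with overlapping groups and a log2 fold change of 0.04. Cox6a2, the heart isoform of subunit 6a, had 12.46 and 12.22 against 12.47 and 12.17, and Cox6a1, the ubiquitous one, 11.31 and 11.34 against 11.47 and 11.19. Neither of these differed between the groups by more than the spread of the arrays (log2 fold changes of -0.02 and 0.01).

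Cox4i2 and Cox6b2, isoforms known from lung and from testis, were among the few members whose highest signal was on Ad-atrogin-1 replicate 2. Cox4i2 had signals of 5.44 and 5.66 in Ad-GFP and of 5.85 and 5.92 in Ad-atrogin-1 (log2 fold change 0.33 with a standard error of 0.13, limma adjusted p = 0.438). Cox6b2 had 4.43 and 4.24 against 4.62 and 4.67 (log2 fold change 0.31 with a standard error of 0.13, limma adjusted p = 0.454). In both genes both Ad-atrogin-1 arrays were above both Ad-GFP arrays, at signals near the median of the arrays or below it, where no background level was estimated. Cox6b1, the ubiquitous partner of Cox6b2, had 11.27 and 11.44 against 11.58 and 11.20. Cox7a1, the muscle isoform of subunit 7a, had 3.86 and 3.88 against 3.82 and 3.69, at or under the lower quartiles, and was the 1 gene of the 87 with both Ad-atrogin-1 arrays below both Ad-GFP arrays. Cox7b2, another isoform at signals under the lower quartile, had 2.74 and 2.63 against 2.58 and 2.63. The ubiquitous Cox7a2 was measured with its copy Cox7a2l2 only, at 12.20 and 12.25 against 12.36 and 12.04. Cox5a, a subunit without isoforms, had 6.80 and 7.07 against 7.44 and 6.76 on its own probe set, and 11.90 and 11.91 against 12.03 and 11.81 on a probe set that it shares with a copy.

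**Figure D3:**
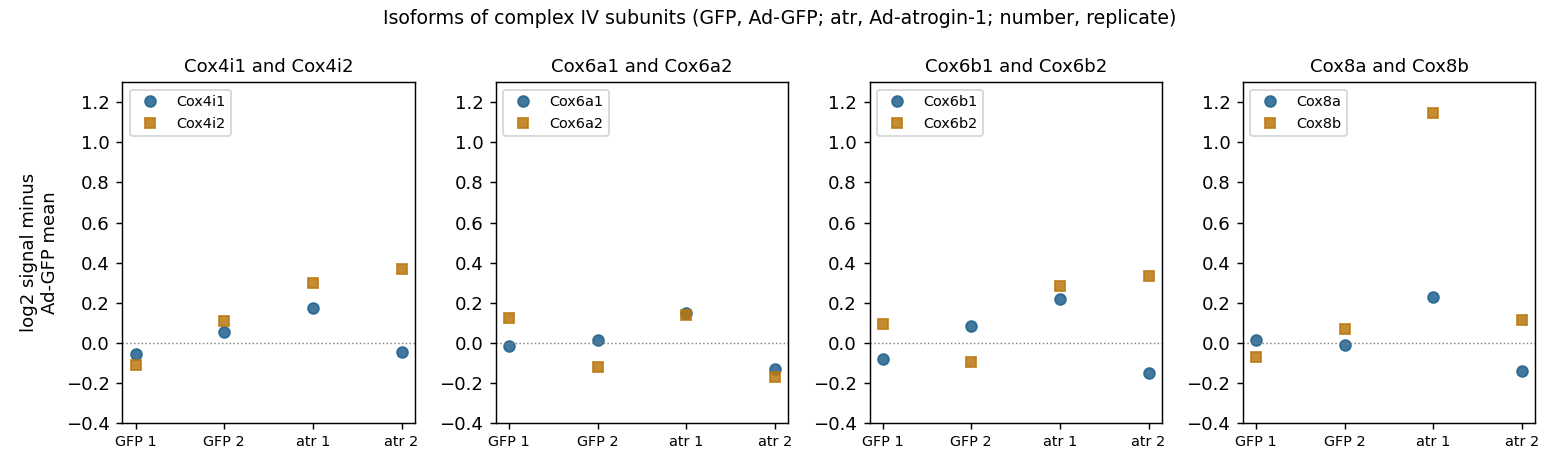
Log2 signal minus the Ad-GFP mean (vertical axis) on each array (horizontal axis) for 4 pairs of complex IV isoforms, the ubiquitous one as circles and the tissue isoform as squares. Cox8b reaches 1.15 on Ad-atrogin-1 replicate 1 alone, while Cox4i2 and Cox6b2 lie above 0 on both Ad-atrogin-1 arrays.

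Complex V, the ATP synthase, had a median log2 fold change of 0.09 over 16 genes, with 14 above 0. On Ad-atrogin-1 replicate 1 the median was 0.23 above the Ad-GFP mean, and on replicate 2 it was -0.08, with 10 of 16 genes below the mean. Of the F1 head, which binds the nucleotides, the catalytic subunit gene Atp5f1b had signals of 12.34 and 12.39 in Ad-GFP and of 12.49 and 12.36 in Ad-atrogin-1. The central stalk gene Atp5f1c had 11.62 and 11.56 against 12.04 and 11.64 and did not overlap (log2 fold change 0.25 with a standard error of 0.16, limma adjusted p = 0.655). The stator, which holds the head still, ran from -0.02 for Atp5po to 0.36 for Atp5pf. Atp5pf had signals of 10.31 and 10.15 against 10.73 and 10.45, with the lowest adjusted p of the complex by limma, 0.463.

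Subunit c forms the rotating ring of the ATP synthase and is made as the same mature protein from several genes. Atp5mc3 had signals of 12.29 and 12.28 in Ad-GFP and of 12.49 and 12.26 in Ad-atrogin-1. Atp5mc1, measured together with its copy, had 10.56 and 10.78 against 11.27 and 10.86 (log2 fold change 0.40), and Atp5mc2, likewise with its copy, had 10.82 and 10.65 against 11.12 and 10.75 (0.20). Atp5if1, the inhibitor that stops the enzyme from running in reverse, had the lowest log2 fold change of all 87 genes, -0.18, with signals of 10.69 and 10.63 in Ad-GFP and of 10.66 and 10.29 in Ad-atrogin-1. Here replicate 2 was the array that differed, and replicate 1 lay between the Ad-GFP arrays. The standard error was 0.16 (limma adjusted p = 0.75), and its dimmer probe sets gave 0.12 and -0.04.

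The assembly factors of complex I are not part of the finished enzyme, and 6 of them bear the Nduf name and were measured. Their median log2 fold change was 0.28, with 0.39 on Ad-atrogin-1 replicate 1 and 0.07 on replicate 2, and they ran from -0.01 for Ndufaf4 to 0.74 for Ndufaf8. Ndufaf8, which works with Ndufaf5 in the modification of a core subunit, had signals of 7.02 and 6.79 in Ad-GFP and of 7.72 and 7.56 in Ad-atrogin-1. Both Ad-atrogin-1 arrays lay above both Ad-GFP arrays by more than the distance within either group. Its signal was 1.67-fold that of Ad-GFP (log2 fold change 0.74 with a standard error of 0.14, limma adjusted p = 0.141), and the log2 fold change stayed between 0.63 and 0.85 with any 1 array left out. Ndufaf3, another early assembly factor, had 8.26 and 7.83 against 8.66 and 8.43 (log2 fold change 0.50 with a standard error of 0.18, limma adjusted p = 0.401). Ndufaf7, a methyltransferase of a core subunit, had 6.58 and 6.43 against 7.33 and 6.52, with overlapping groups, and its dimmer probe set gave -0.06. Ndufaf5 and Ndufaf4 had log2 fold changes of 0.06 and -0.01. The dimmer probe sets of Ndufa9 and Ndufv3 also differed in sign from the brighter ones, at -0.11 against 0.12 and at -0.23 against 0.18.

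**Figure D4:**
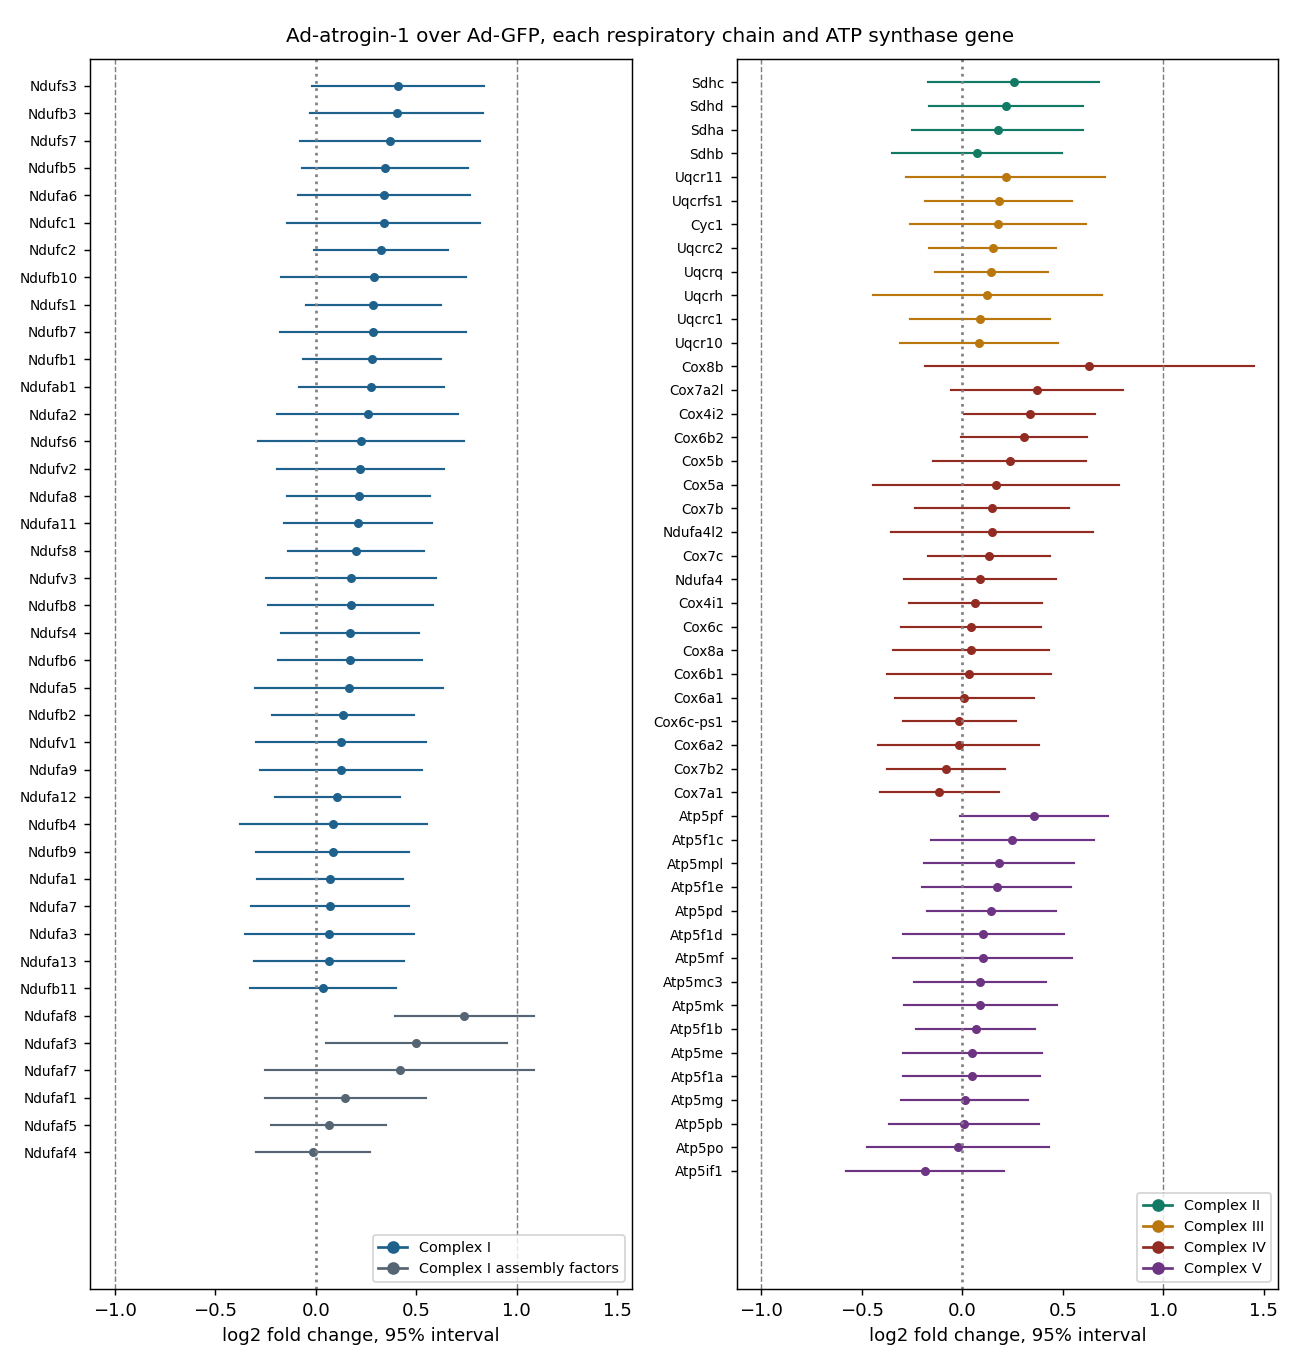
Log2 fold change of Ad-atrogin-1 over Ad-GFP (horizontal axis) with its 95% interval for each of the 87 genes, coloured by complex; the dashed lines stand at a 2-fold change. The intervals of Ndufaf8, Ndufaf3 and Cox4i2 lie above 0, all others include 0, and 84 of 87 lie within the dashed lines.

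The 95% intervals by limma rest on 2 residual and 3.65 prior degrees of freedom, and the prior is taken from all probe sets. Each interval is for 1 gene alone and does not allow for a difference that many members share on 1 array. They therefore do not exclude larger changes. The intervals of 84 of the 87 genes lay within a change of 2-fold in either direction. The other 3 were Cox8b, Ndufaf7 and Ndufaf8, whose upper bounds were 1.45, 1.09 and 1.08 on the log2 scale. Standard errors ran from 0.11 to 0.33 with a median of 0.15. In 27 of 87 genes both Ad-atrogin-1 arrays lay above both Ad-GFP arrays and in 1 both lay below, beside 20.7% above, 22.3% below and so 43% on either side over all genes. Of the 27, 12 belong to complex I, 6 to complex IV and 4 to complex V.

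The median log2 fold change was 0.17 for 17 genes with a mean log2 signal under 9, 0.18 for 44 genes from 9 to 11 and 0.08 for 26 genes above 11, beside -0.01, 0.03 and 0.03 for other genes. Spearman's rho between mean signal and log2 fold change was -0.40 over the 87 genes, which share the same 4 arrays. A signal also depends on how well a probe set binds, so these ranges are no order of RNA levels. The 7 shared probe sets had log2 fold changes from -0.02 to 0.40 with a median of 0.05, and all 7 had their highest signal on Ad-atrogin-1 replicate 1. Of the 10 dimmer probe sets of genes that have several, 5 had it there.

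Promoters of respiratory chain genes are known for sites of the factors NRF1, GABP, YY1 and ERR, which are thought to keep the subunits in step. The promoter sequences of RefSeq on the GRCr8 assembly, from 250 bases before to 50 after the start, held 85 of the 99 genes, and the letters of these 4 motifs were searched on both strands. The NRF1 letters CGCNTGCGC were found in 21 of 85 promoters (24.7%) and in 5.80% of all 33469, and the GABP letters CCGGAAG in 23 (27.1%) and in 8.75%. The YY1 letters AAGATGGC were in 17 (20%) against 3.17%, and the ERR letters AAGGTCA in 12 (14.1%) against 4.61%. At least 1 of the 4 motifs was in 51 of 85 (60%) and in 19.8% of all. All 33469 promoters were not limited to genes of the array, nor matched to the members by signal or base content. The members were cut to 1 promoter per gene, and all 33469 were not. A match of letters is a description and no measured binding. The 48 measured genes with a motif had a median log2 fold change of 0.15 and the 30 without one 0.16, and the medians were 0.32 and 0.31 on Ad-atrogin-1 replicate 1 and 0.01 and 0.007 on replicate 2.

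The promoters of 5 members, chosen after their matches and values had been seen, are printed 5′ to 3′ with the matches in capitals. They are those of Ndufaf8, the member with the lowest p, at chr10:105879658-105879957 on the plus strand; of Uqcrc1 at chr8:118467973-118468272 on the plus strand; of the isoform pair Cox8a at chr1:213833574-213833873 and Cox8b at chr1:205408224-205408523, both on the minus strand; and of Atp5me, a membrane subunit of the ATP synthase, at chr14:1464610-1464909 on the plus strand.
Ndufaf8: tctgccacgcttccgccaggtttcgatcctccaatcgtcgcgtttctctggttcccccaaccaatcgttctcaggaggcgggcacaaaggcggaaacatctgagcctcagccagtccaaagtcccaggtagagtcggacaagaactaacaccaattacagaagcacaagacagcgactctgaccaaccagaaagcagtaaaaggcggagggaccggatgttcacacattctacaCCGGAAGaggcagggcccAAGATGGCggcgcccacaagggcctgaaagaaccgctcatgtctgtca
Uqcrc1: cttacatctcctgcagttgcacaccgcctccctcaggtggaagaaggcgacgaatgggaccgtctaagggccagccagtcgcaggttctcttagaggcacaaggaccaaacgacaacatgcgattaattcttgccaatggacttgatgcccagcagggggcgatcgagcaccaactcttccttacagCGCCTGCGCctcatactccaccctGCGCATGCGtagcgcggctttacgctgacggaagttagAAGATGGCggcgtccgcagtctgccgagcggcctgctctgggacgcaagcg
Cox8a: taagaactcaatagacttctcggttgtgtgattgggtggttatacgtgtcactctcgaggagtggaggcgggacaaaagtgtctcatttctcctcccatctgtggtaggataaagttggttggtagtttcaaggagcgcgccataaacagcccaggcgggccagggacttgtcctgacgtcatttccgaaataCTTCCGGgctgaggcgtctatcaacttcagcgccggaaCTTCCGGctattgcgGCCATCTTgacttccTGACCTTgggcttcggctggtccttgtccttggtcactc
Cox8b: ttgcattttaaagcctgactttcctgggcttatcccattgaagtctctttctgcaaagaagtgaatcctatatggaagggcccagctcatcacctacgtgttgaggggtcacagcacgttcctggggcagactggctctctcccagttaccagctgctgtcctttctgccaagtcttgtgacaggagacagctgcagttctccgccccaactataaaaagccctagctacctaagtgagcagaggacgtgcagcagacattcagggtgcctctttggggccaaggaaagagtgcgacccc
Atp5me: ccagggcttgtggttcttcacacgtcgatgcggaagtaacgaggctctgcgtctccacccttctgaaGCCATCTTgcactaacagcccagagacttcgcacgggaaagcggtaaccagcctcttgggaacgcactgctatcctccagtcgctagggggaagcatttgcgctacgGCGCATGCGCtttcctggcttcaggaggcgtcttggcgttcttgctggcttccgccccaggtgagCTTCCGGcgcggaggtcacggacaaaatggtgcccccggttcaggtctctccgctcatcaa

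The Ndufaf8 promoter holds a GABP and a YY1 match, that of Uqcrc1 holds 2 NRF1 matches and a YY1 match, and that of Cox8a holds 2 GABP matches, a YY1 and an ERR match. The Atp5me promoter holds GABP and YY1 matches and 2 NRF1 matches that overlap, 1 on each strand. The Cox8b window holds none of the 4, and neither does that of Ndufaf3, which is not printed. Of these genes, Atp5me had signals of 10.70 and 10.69 in Ad-GFP and of 10.89 and 10.61 in Ad-atrogin-1, and Uqcrc1 had 11.14 and 11.08 against 11.34 and 11.06. Both were highest on Ad-atrogin-1 replicate 1, as were Ndufaf8, Cox8a and Cox8b.

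Other mitochondrial genes were set beside the chain, by lists of genes grouped by function that were chosen with earlier results of these data known. None of their genes passed the test, by the same rule under which 0.274% of all probe sets did. Of the subunits that mitochondrial DNA encodes, COX1 and COX2 were measured, with log2 fold changes of -0.05 and 0.03. COX1 was at the highest signal of any probe set on each of the 4 arrays. That signal was 13.99 on 3 of them and 13.90 on Ad-atrogin-1 replicate 2, so that a difference there could be hidden. The tricarboxylic acid cycle, which feeds electrons to the chain, had a median log2 fold change of 0.16 over 14 genes, and 13 of the 14 had their highest signal on Ad-atrogin-1 replicate 1. Its median was 0.29 on that array and 0.08 on replicate 2. Pdha1, a subunit of the pyruvate dehydrogenase that feeds the cycle and the brightest of the 14, was the other one, with signals of 11.05 and 11.39 in Ad-GFP and of 11.15 and 10.85 in Ad-atrogin-1 (log2 fold change -0.22). Cs, the citrate synthase gene, had signals of 10.93 and 11.03 in Ad-GFP and of 11.21 and 11.09 in Ad-atrogin-1. The genes of coenzyme Q synthesis and electron entry, over 17 genes, had a median of 0.11, with 0.29 on replicate 1 and -0.04 on replicate 2. The cytochrome c genes of that list have no probe set of their own and are not in these values. The brightest were Etfa, of the flavoprotein that passes electrons from fatty acid oxidation, and Coq9, of coenzyme Q synthesis, with log2 fold changes of 0.16 and 0.39.

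The ATP, phosphate and proton carriers and the regulators of mitochondrial gene expression lay nearer to 0. The 10 carrier genes had a median log2 fold change of 0.04, with 0.09 and 0.01 on the Ad-atrogin-1 arrays. Slc25a3, the phosphate carrier, and Slc25a4, the heart ADP/ATP carrier, had log2 fold changes of -0.01 and 0.15. The 18 regulator genes had a median of 0.02, with 0.02 and 0.04 on the Ad-atrogin-1 arrays. Of these, Tfam, which packages mitochondrial DNA and drives its transcription, had signals of 9.30 and 9.23 in Ad-GFP and of 9.20 and 9.25 in Ad-atrogin-1, and Yy1 had 9.85 and 9.73 against 9.65 and 9.66. At an unadjusted p under 0.05 there were 2 higher and 1 lower of the 18 regulators. Over all genes 6.83% were higher and 6.52% lower at that limit, 13.4% either way. These regulators were named after their values were seen. Ppargc1a, the coactivator PGC-1alpha, had 7.16 and 7.38 against 8.28 and 7.67, above in both arrays and more so on replicate 1 (log2 fold change 0.70 with a standard error of 0.22, limma adjusted p = 0.337). Esrrg, a receptor of the ERR family, had 8.92 and 8.63 against 9.38 and 9.15 (log2 fold change 0.50, limma adjusted p = 0.336). Nrf1, the gene of the factor whose motif was searched in the promoters, was the lower one, with 6.004 and 5.992 against 5.751 and 5.640 (log2 fold change -0.30, limma adjusted p = 0.429).

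The assembly factors without an Nduf name and the import machinery were above the Ad-GFP mean on both Ad-atrogin-1 arrays by their medians. Over 36 assembly factors of the 5 complexes the median log2 fold change was 0.19, with 0.25 on Ad-atrogin-1 replicate 1 and 0.09 on replicate 2, and at an unadjusted p under 0.05 there were 8 higher and 1 lower, beside 6.83% higher and 6.52% lower over all genes. The lower one was Sdhaf1 of complex II (-0.40). Cox18 (0.50) and Atpaf2 (0.47) had the lowest p by limma of the higher ones. All of these were named after their values were seen. The brightest, Cox14 and Cox17, had log2 fold changes of 0.18 and 0.06. Over 16 genes of mitochondrial protein import and chaperones the median was 0.22, with 0.16 on replicate 1 and 0.25 on replicate 2. Hspd1, the matrix chaperonin Hsp60, had signals of 12.10 and 11.95 in Ad-GFP and of 12.28 and 12.29 in Ad-atrogin-1, and its partner Hspe1 had 11.72 and 11.42 against 11.98 and 11.94. In both genes the Ad-atrogin-1 arrays were alike and lay above the Ad-GFP arrays (limma adjusted p = 0.511 and 0.409). With Ad-atrogin-1 replicate 1 left out, the median of the import list was 0.25, whereas that of the 87 subunit and Nduf genes was 0.001. The difference between these medians was not tested.

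**Figure D5:**
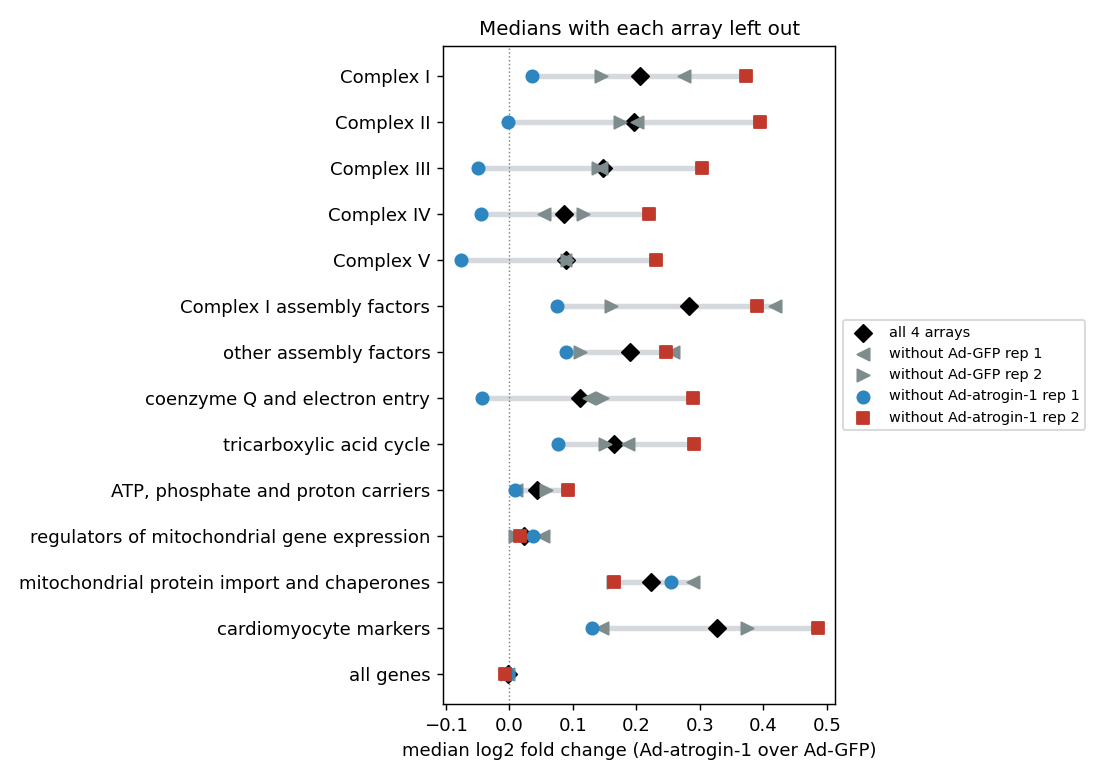
Median log2 fold change of Ad-atrogin-1 over Ad-GFP (horizontal axis) of each complex, of other mitochondrial gene lists, of cardiomyocyte markers and of all genes, with all 4 arrays and with each array left out. Without Ad-atrogin-1 replicate 1 the medians of complexes I to V lie between -0.08 and 0.04, and that of protein import stays at 0.25.

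Markers of cell types were read on the same arrays. Cardiomyocyte markers were bright, with mean log2 signals from 8.65 to 13.56 over 13 of 14 genes, as the labelled cell type has them, and their summed linear signal was 52324 and 56956 in Ad-GFP and 64172 and 51878 in Ad-atrogin-1. Ad-atrogin-1 replicate 1 was thus the highest for cardiomyocyte markers as well, with 8 of 13 genes at their highest signal there. Their median log2 fold change was 0.33, with 0.49 on replicate 1 and 0.13 on replicate 2. Of the 13 genes, 8 had a log2 fold change above 0 and 5 below. Nppa and Tnnt2, the brightest, had log2 fold changes of -0.22 and -0.11. Myh6, the adult myosin heavy chain, had signals of 10.01 and 11.09 against 11.84 and 10.89, with overlapping groups. Myl7 had 8.29 and 7.99 against 9.26 and 9.07 (log2 fold change 1.03, limma adjusted p = 0.0908). Atp2a2 had 11.33 and 11.84 against 12.63 and 11.97 (log2 fold change 0.715, limma adjusted p = 0.423). Myh6, Myl7 and Atp2a2 were named after their values were seen. The part of the cardiomyocyte markers in the values of the respiratory chain was not tested.

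Markers of macrophages and leukocytes were also higher on Ad-atrogin-1 replicate 1 than on replicate 2, at 8 of 8 genes, with summed linear signals of 351 and 398 in Ad-GFP and of 578 and 248 in Ad-atrogin-1. Endothelial markers were lower on it, with sums of 604 and 826 against 580 and 1040 over 7 of 8 genes, and 0 of 7 had their highest signal there. All 7 were lower on Ad-atrogin-1 replicate 1 than on replicate 2. The sum of 1040 rested in part on Emcn, named after its values were seen. Emcn had log2 signals of 5.74 and 6.02 against 5.48 and 8.02. Fibroblast markers had sums of 15419 and 18755 against 17453 and 17384 over 10 of 10 genes, and smooth muscle and pericyte markers 4436 and 4912 against 5072 and 4851 over 7 of 7. The epithelial and mesothelial list (7 of 8 genes) had sums of 293 and 251 against 405 and 455, with 5 of the 7 genes below 0. The higher sums rested on Krt19, named after its values were seen, which had log2 signals of 3.20 and 5.48 in Ad-GFP and of 7.89 and 8.09 in Ad-atrogin-1 (limma adjusted p = 0.141). Without it the sums of the other 6 genes were 284 and 206 against 168 and 183. The erythroid list (3 of 5) had sums of 193 and 148 against 169 and 163, and the Schwann and glial list (3 of 5) sums of 55.1 and 54.2 against 44.1 and 58.4. Their part in the result was not tested either.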

How the data were processed

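Total RNA of 4 cultures was measured on Affymetrix rat arrays. The deposited log2 values, 1 per probe set and array, come from RMA in GeneSpring GX 11.0 per the methods and the submitters' processing notes, and were taken as they are. RMA brings the arrays to a like distribution, which can hide a shift of all genes. Without the 57 controls, 31042 probe sets were tested, dim ones included. Of these, 20826 are paired with 1 gene, 436 with several and 9780 with none, by a platform annotation that can be old. The members and lists were chosen with earlier results of these data known.

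The groups were tested two-sided by limma (version 3.58.1, R 4.3.3; functions lmFit and eBayes) without a block, on 2 residual and 3.65 prior degrees of freedom. Benjamini-Hochberg adjustment ran over all probe sets. Calls were made at 2-fold or more with an adjusted p under 0.05. The brightest own probe set stood for a gene. Medians over genes carry no test. The fit was tested on simulated data with independent noise and changes larger than those of any member. That test says nothing about finding changes as small as those of the members. Named genes are members called or with an unadjusted p under 0.05; the 2 brightest and the 2 largest changes in each direction per complex; complex IV and subunit c isoforms; members with probe sets of opposite sign; the 2 brightest of each other mitochondrial list; and Fbxo32. Others were named after their values were seen. The methods count more experiments than arrays; which experiment an array belongs to was not used here. Alternatives were other normalizations, a filter on dim probe sets, other variance priors, an equal-variance test of the 2 means (the methods name no test for the arrays), other thresholds, the replicate number as a block, other gene summaries, and each array left out. Figures were drawn with matplotlib 3.10.9.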

Additional observations from a re-analysis of the deposited data

How the results depend on the processing

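No member was called under any normalization, filter, prior, block or gene summary tried; with an unadjusted p under 0.05 and no fold threshold there were 3. None was called under the equal-variance test or with 1 array left out either, but there Fbxo32 itself was not called, so these settings say nothing about stability. That count of 3 members with an unadjusted p under 0.05 became 5 with each array centred on its median and 1 under the equal-variance test. No label says that arrays of the same number share a cell preparation. Their deviations correlated at 0.04 over all probe sets and at 0.06 over the 104 of the members. With 2 arrays per group these values cannot decide whether they share one. With the replicate number as a block the count became 7, and the block changed no call. With 1 array left out, where the lone array is assumed to vary like the other group, it ran from 1 (without Ad-atrogin-1 replicate 1) to 24 (without Ad-atrogin-1 replicate 2). The median log2 fold change then ran from 0.00055 to 0.32 for all 87 members, from 0.04 to 0.37 for complex I, from -0.002 to 0.39 for complex II, from -0.049 to 0.30 for complex III, from -0.045 to 0.22 for complex IV, from -0.076 to 0.23 for complex V and from 0.075 to 0.42 for the complex I assembly factors. The lowest of each came without Ad-atrogin-1 replicate 1, and the highest without replicate 2, except for the assembly factors, where the highest came without Ad-GFP replicate 1. A further quantile normalization took the median of all members to 0.10 and that of complex V to 0.003, and averaging each gene's probe sets took the assembly factors to 0.16. The median of all genes moved by under 0.01 throughout. Fbxo32 kept its log2 fold change of 8.37 under the equal-variance test but not its call (adjusted p = 0.421), nor did it with 1 array left out (8.27 to 8.47). Of 38 named members, 21 changed sign under at least 1 setting.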
